A study of Mus musculus with 17 samples.

Results

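MHC class II molecules are the cell surface proteins that show fragments of engulfed protein to CD4+ T cells. In all, 9 genes of this pathway were followed in the cochlear RNA of noise-exposed mice. They were taken by gene name from the 35285 genes of the deposited expression table, and all 9 were found in it: H2-Aa, H2-Ab1, H2-Eb1, H2-DMa, H2-DMb1, H2-Oa, H2-Ob, Cd74 and Ciita. RNA came from the cochleae of 17 male wild-type C57BL/6J mice, 8 weeks old, with 1 library per mouse and tissue taken 2 days after exposure. The control group (n = 3) was injected with saline and was not exposed. The noise exposure (NE) group (n = 7) was exposed for 2 h to noise of 8 to 16 kHz at 100 dB. The sample labels call this noise broadband, and the methods call it octave-band. The sources used here state no injection for the NE group. The brimonidine group (n = 7) was exposed in the same way and was given brimonidine, which activates α2-adrenergic receptors, in 3 intraperitoneal injections of 1 mg/kg on the day before, the day of and the day after the noise. The labels give the tissue as cochlear cells and the cell type as interstitial cells.

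An α chain and a β chain form the class II molecule, and in C57BL/6 mice H2-Aa and H2-Ab1 encode the pair known as I-A. The β chain of the other pair, I-E, is encoded by H2-Eb1, and its partner H2-Ea is defective in this strain. Cd74 encodes the invariant chain, which fills the groove of the new molecule and takes it to the endosome. There H2-DM, made of H2-DMa and H2-DMb1, exchanges the last remnant of the invariant chain for an antigen peptide. H2-O, made of H2-Oa and H2-Ob, inhibits H2-DM and is known mainly from B cells. Ciita encodes the coactivator that switches these genes on, and interferon-γ induces it in many cell types. Dendritic cells, B cells and macrophages are the usual bearers of class II, and macrophages reside in the cochlea.

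By the coordinates of the deposited table, 7 of the 9 genes lay within 224 kb of chromosome 17, on the build given as mm10 in the submitters' processing notes. Cd74 and Ciita lay outside this cluster. Class II promoters are known for an X box, which the RFX complex binds, followed at a nearly fixed distance by a Y box, which NF-Y binds, and CIITA docks on the assembled factors. RefSeq promoters on GRCm38.p6, 250 bases before to 50 bases after the transcript start, were available for 6 of the 9 genes. The 5 promoters below are shown because they share this arrangement. Capitals mark 1 pair in each promoter, on the strand of the gene: CNNGNAAC, a short form of the X box, and the ATTGG that follows it, the Y box. Any further match to either is left in lower case. They are given 5′ to 3′ and span chr17:34287774-34288073 on the minus strand for H2-Aa and, on the plus strand, chr17:34305617-34305916 for H2-Eb1, chr17:34152941-34153240 for H2-DMb1, chr17:34092129-34092428 for H2-Oa and chr17:34238655-34238954 for H2-Ob.
H2-Aa: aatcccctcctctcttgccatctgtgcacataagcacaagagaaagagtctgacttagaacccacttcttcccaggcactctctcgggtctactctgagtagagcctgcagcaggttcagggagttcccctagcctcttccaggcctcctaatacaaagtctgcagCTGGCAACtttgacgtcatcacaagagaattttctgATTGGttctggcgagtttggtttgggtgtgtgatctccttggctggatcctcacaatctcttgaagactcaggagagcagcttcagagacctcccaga
H2-Eb1: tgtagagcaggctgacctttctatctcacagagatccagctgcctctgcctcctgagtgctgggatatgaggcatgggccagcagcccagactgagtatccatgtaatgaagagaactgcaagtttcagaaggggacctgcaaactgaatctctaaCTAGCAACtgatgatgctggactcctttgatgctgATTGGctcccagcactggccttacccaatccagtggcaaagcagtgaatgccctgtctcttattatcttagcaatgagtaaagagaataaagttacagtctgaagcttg
H2-DMb1: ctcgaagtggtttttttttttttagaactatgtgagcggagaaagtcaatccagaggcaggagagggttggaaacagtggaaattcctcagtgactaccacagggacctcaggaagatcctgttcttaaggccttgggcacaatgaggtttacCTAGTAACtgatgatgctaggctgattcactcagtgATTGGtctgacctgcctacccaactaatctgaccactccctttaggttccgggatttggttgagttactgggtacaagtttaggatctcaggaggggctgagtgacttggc
H2-Oa: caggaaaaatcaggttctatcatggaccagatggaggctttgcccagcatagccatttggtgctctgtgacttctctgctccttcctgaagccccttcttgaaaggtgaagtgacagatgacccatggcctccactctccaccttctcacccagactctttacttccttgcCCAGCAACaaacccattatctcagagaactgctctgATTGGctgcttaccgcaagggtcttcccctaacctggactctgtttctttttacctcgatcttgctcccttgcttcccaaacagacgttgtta
H2-Ob: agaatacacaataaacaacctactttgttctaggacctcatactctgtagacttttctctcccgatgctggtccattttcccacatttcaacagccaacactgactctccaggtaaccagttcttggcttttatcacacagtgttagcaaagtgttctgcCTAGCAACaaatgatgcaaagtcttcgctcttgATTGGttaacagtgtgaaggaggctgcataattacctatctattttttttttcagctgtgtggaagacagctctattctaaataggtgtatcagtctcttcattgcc
The X box began 84 bases before the start in H2-Aa, 94 in H2-Eb1, 97 in H2-DMb1, 79 in H2-Oa and 90 in H2-Ob. Between both boxes lay 28 bases in H2-Aa, H2-DMb1 and H2-Oa, 27 in H2-Eb1 and 25 in H2-Ob. Both strands of all RefSeq promoters of this length were searched for CNNGNAAC followed by ATTGG on one strand after a gap of 15 to 30 bases, and 209 of 32851 (0.636%) held the pair. CNNGNAAC alone was in 39.1% of them and ATTGG alone in 37.4%. These letters were written down after the 5 promoters had been read, so their presence there is a description. Neither of both H2-DMa windows held the pair, and both lay before the first base that the deposited table gives for this gene. The pair was thus present in the abundant H2-Eb1 and in the sparse H2-Oa alike.

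Between 14457733 and 18288854 fragments per library lay behind the values, as recovered from the steps in the FPKM values (fragments scaled to exon length and to the library total). The controls had 14457733 to 16080796, the NE libraries 15769236 to 18288854 and the brimonidine libraries 16624437 to 18224926. Control 2 stood apart: its median correlation with the other libraries was 0.831, against 0.955 and 0.947 for the other controls and 0.970 to 0.981 for the exposed libraries. Markers of cerebellar neurons summed to 282 to 764 FPKM in the controls, highest in control 2, against 24.1 to 38.1 FPKM in the NE group and 28.3 to 107 FPKM in the brimonidine group. Neutrophil markers summed to 10030 FPKM in control 2 and to 40296 to 65703 FPKM in every other library. Among 12 genes typical of the cochlea, 8 passed the expression filter and 4, Slc26a5, Tecta, Tectb and Oc90, had a mean under 1 FPKM. In whole tissue, fewer cells of a type and less RNA per cell cannot be told apart.

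All 9 genes were detected in every library, over levels from 0.331 FPKM (H2-Oa in control 3) to 425 FPKM (Cd74 in NE 2). FPKM divides by exon length, so the levels of different genes can be set side by side as far as the lengths used are right. Cd74, at a mean of 274 FPKM over the 17 libraries, ranked 127 among the 15007 genes whose mean reached 1 FPKM. H2-Eb1 (129.6 FPKM) ranked 316, H2-Ab1 (116 FPKM) 372 and H2-Aa (96.7 FPKM) 454. H2-DMb1 (20.5 FPKM) and H2-DMa (19.5 FPKM) ranked 2843 and 3017. H2-Ob (2.82 FPKM) ranked 11276, Ciita (2.44 FPKM) 11866, and H2-Oa (0.877 FPKM) fell below the limit of the ranking. The peptide exchange factor was thus present at a lower RNA level than the chains it acts on, and its inhibitor at a lower level still. The order was not equally firm at every step. H2-Ab1 exceeded H2-Aa in 17 of 17 libraries and H2-Eb1 exceeded H2-Ab1 in 16 of 17. The same length divides a gene in every library, so these counts also rest on the lengths, whose annotation is not stated. The lengths solved were 1874 bases for H2-Aa, 1637 for H2-Ab1 and 1184 for H2-Eb1. In control 1, H2-Eb1 had 2011 fragments, fewer than H2-Aa (2533) and H2-Ab1 (2470). H2-DMb1 exceeded H2-DMa in 10 of 17 and H2-Ob exceeded Ciita in 12 of 17, so these neighbors were not separated beyond their spread.

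**Figure D1:**
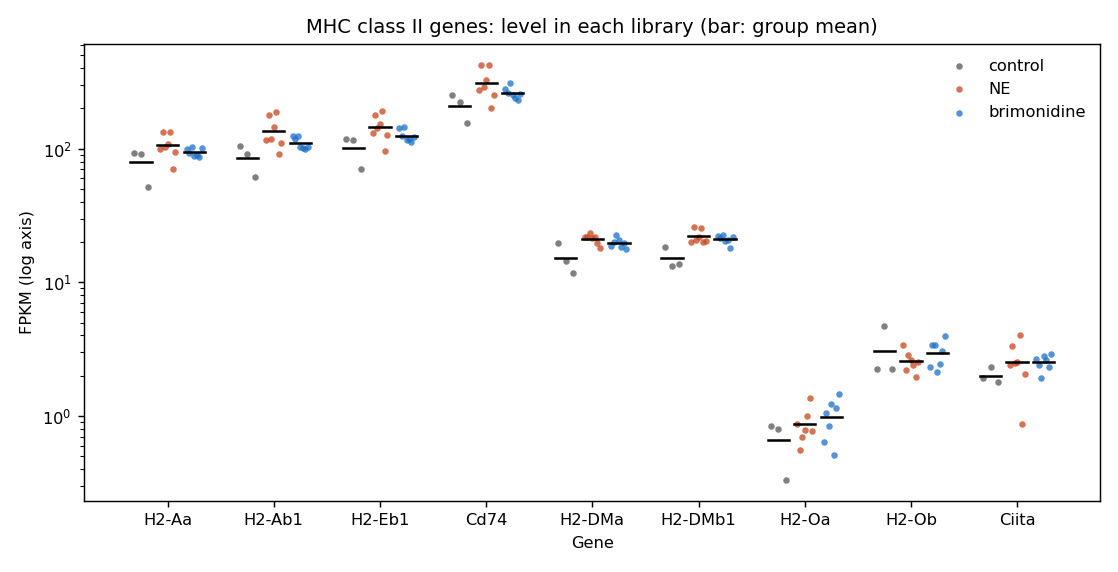
FPKM of the 9 MHC class II genes (x axis) in each of the 17 cochlear libraries on a log axis (y axis), with 1 point per mouse and a black bar at the mean of the 3 control, 7 NE or 7 brimonidine libraries. Cd74 and the 3 chain genes lay between 52.1 and 425 FPKM, H2-DMa and H2-DMb1 between 11.7 and 26.0 FPKM, and H2-Oa, H2-Ob and Ciita at or under 4.74 FPKM.

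The peptide-binding chains were at their lowest in 1 control and at their highest in 2 NE mice. H2-Aa (chr17:34282744-34287827, minus strand) measured 93.5, 91.1 and 52.1 FPKM in control 1, 2 and 3. In the NE group it ranged from 70.1 (NE 6) over a median of 104 to 134 FPKM (NE 5), and in the brimonidine group from 87.3 over 93.6 to 104 FPKM. All 3 controls were exceeded by 6 of the 7 NE libraries, and NE 6 lay between control 3 and the others. H2-Ab1 (chr17:34263209-34269418, plus strand) measured 104, 91.1 and 61.5 FPKM in the controls. Its NE values ran from 91.9 (NE 6) over 119 to 187 FPKM (NE 5), and its brimonidine values from 100.3 over 104 to 124 FPKM. Here too 6 of the 7 NE libraries exceeded every control. H2-Eb1 (chr17:34305877-34316199, plus strand) measured 117, 117 and 70.9 FPKM in the controls. It reached 96.2 (NE 6), a median of 142 and 191 FPKM (NE 5) in the NE group, and 111, 122 and 145 FPKM in the brimonidine group. Control 3 was the lowest of the 17 libraries for all 3 chain genes. The α chain that H2-Eb1 would pair with was listed as H2-Ea-ps at 0 FPKM in 16 of 17 libraries and at 0.0812 FPKM in 1 brimonidine library.

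Cd74 (chr18:60803848-60812646, plus strand), the invariant chain, followed the chains it escorts. It measured 254, 223 and 154 FPKM in the controls. The NE libraries ran from 201 (NE 6) over a median of 291 to 425 FPKM (NE 2), and the brimonidine libraries from 231 over 254 to 312 FPKM. Of the 7 NE libraries, 5 lay above all controls. The level of Cd74 relative to the mean of H2-Aa and H2-Ab1 was nearly constant: it lay between 2.44 and 2.74 in all 17 libraries, with 2.58 ± 0.136 (SD, n = 3) in the controls, 2.57 ± 0.0944 (n = 7) in the NE group and 2.55 ± 0.107 (n = 7) in the brimonidine group.

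H2-DMa and H2-DMb1 encode both chains of the peptide exchange factor and varied least among the NE mice. H2-DMa (chr17:34135182-34139101, plus strand) measured 19.7, 14.5 and 11.7 FPKM in the controls, 18.2 to 23.3 FPKM with a median of 21.8 in the NE group, and 17.6 to 22.8 FPKM with a median of 19.8 in the brimonidine group. Control 1 lay within the range of the exposed libraries, and the other controls lay below all of them. H2-DMb1 (chr17:34153072-34160230, plus strand) measured 18.5, 13.3 and 13.7 FPKM in the controls. Its NE values, 20.1 to 26.0 FPKM with a median of 20.7, lay above every control without overlap. Its brimonidine values, 18.1 to 22.6 FPKM with a median of 21.5, overlapped with control 1 only. H2-DMb1 has a close copy, H2-DMb2, and 369 of the 1629 stretches of 50 bases in its GENCODE M21 transcripts (22.7%) also occur in H2-DMb2, so fragments from these stretches could have been assigned to either gene. H2-DMb2 measured 3.81 ± 1.67 FPKM in the controls (SD, n = 3), 5.38 ± 1.70 FPKM in the NE group (n = 7) and 5.05 ± 0.798 FPKM in the brimonidine group (n = 7).

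The inhibitor genes were sparse, and other libraries stood at the top. H2-Ob (chr17:34238903-34245907, plus strand) was highest of all 17 libraries in control 2, at 4.74 FPKM, whereas control 1 and control 3 held 2.24 and 2.25 FPKM. The NE group ranged from 1.95 over 2.54 to 3.42 FPKM and the brimonidine group from 2.13 over 3.06 to 3.97 FPKM. All 3 groups overlapped. Control 2 also had the highest sum of B cell markers, 132 FPKM, against 31.5 to 95.6 FPKM in the other libraries. H2-Oa (chr17:34092340-34095234, plus strand) rested on 7 to 32 fragments per library. It measured 0.842, 0.802 and 0.331 FPKM in the controls, 0.559 to 1.35 FPKM with a median of 0.791 in the NE group and 0.514 to 1.46 FPKM with a median of 1.06 in the brimonidine group. A gene of the opposite strand, BC051537, covers H2-Oa whole, and its mean was 0.0248 FPKM.

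Ciita (chr16:10488178-10527564, plus strand), the coactivator, had the widest range of the 9 genes in the NE group. It measured 1.91, 2.31 and 1.80 FPKM in the controls. In the NE group it ran from 0.869 (NE 6) over 2.49 to 4.05 FPKM (NE 5), and in the brimonidine group from 1.91 over 2.60 to 2.93 FPKM. NE 6 lay below all controls and 5 of the 7 NE libraries lay above them. The gene shares 25034 bases with Dexi on the opposite strand, which had a mean of 3.51 FPKM. The library kit keeps strand, but the sources used here do not state whether counting used it, so fragments from Ciita and Dexi may not be fully told apart.

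**Figure D2:**
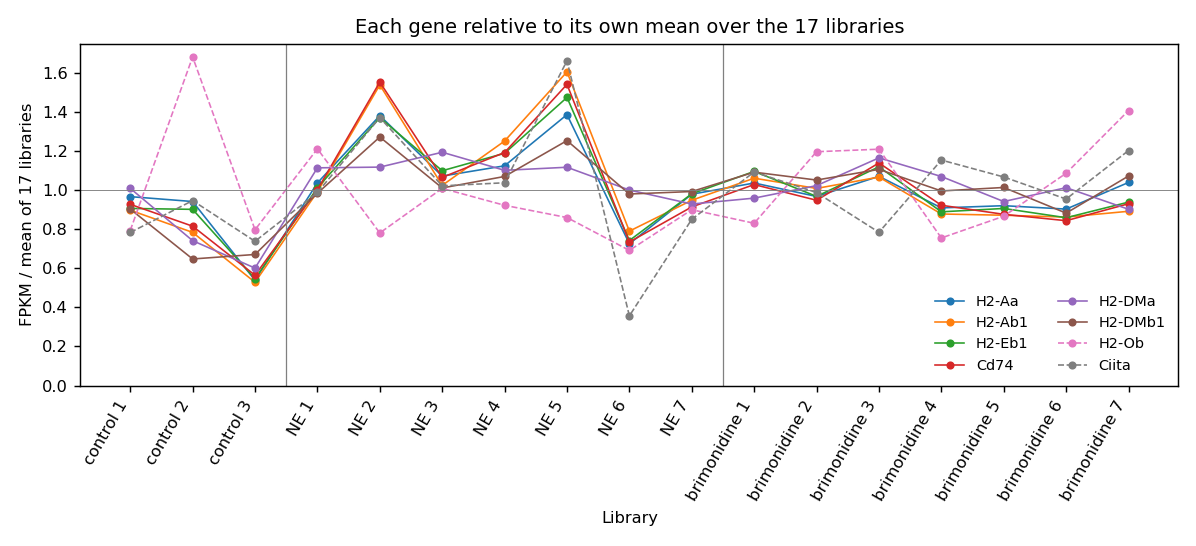
FPKM of 8 MHC class II genes in each library (x axis) divided by the mean of that gene over the 17 libraries (y axis), with solid lines for H2-Aa, H2-Ab1, H2-Eb1, Cd74, H2-DMa and H2-DMb1 and dashed lines for H2-Ob and Ciita. Vertical lines part the control, NE and brimonidine groups. H2-Aa, H2-Ab1, H2-Eb1 and Cd74 ran together, low in control 3 and NE 6 and high in NE 2 and NE 5.

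NE and control were compared to ask what noise did to the cochlear transcriptome. Saline injections are stated for the control group but not for the NE group, so both may differ in the injections too. Of the 9 class II genes, 8 passed the filter (1 FPKM or more in 3 or more of these libraries) and 7 of these had a log2 fold change above 0, as 43.9% of all genes had. No class II gene reached both thresholds of the study, an adjusted p under 0.05 together with a log2 fold change of 1 or more in size. Across all 15950 genes tested, 5.76% were called by these thresholds. On the adjusted p alone, 2 of the 8, H2-DMb1 and H2-DMa, were higher in the NE group, where 2.12% of all genes were higher by that rule. The unadjusted p was under 0.05 for 5 of the 8, all higher, and for 10.6% of all genes in that direction. The median log2 fold change of the 8 genes was 0.49, against -0.044 for all genes tested. Fold changes here are differences of log2(FPKM + 1), fitted with limma and adjusted by the method of Benjamini and Hochberg over all genes.

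H2-DMb1 rose most clearly. Its mean went from 15.2 ± 2.89 FPKM (SD, n = 3) to 22.1 ± 2.62 FPKM (n = 7), 45.9% more, with a log2 fold change of 0.52 ± 0.12 (SE, limma adjusted p = 0.0178). The exact two-sided permutation test gave p = 0.00833, the smallest that 7 against 3 libraries allow. Among all genes tested, 3.24% were higher in the NE group without overlap, as H2-DMb1 was. H2-DMa rose from 15.3 ± 4.05 to 21.1 ± 1.72 FPKM, a log2 fold change of 0.47 ± 0.13 (limma adjusted p = 0.0414, exact permutation p = 0.025). Its adjusted p was 0.0535 after rescaling to equal totals and 0.0621 with no filter on low values.

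The chain genes and Cd74 had differences of the same size with a wider spread. H2-Ab1 went from 85.7 ± 22.0 to 135 ± 36.1 FPKM (58.0% more in the mean), with a log2 fold change of 0.65 ± 0.24 that did not pass (limma adjusted p = 0.0920, exact permutation p = 0.0333). For Cd74, 210.4 ± 50.8 FPKM stood against 313 ± 84.6 FPKM, a log2 fold change of 0.55 ± 0.25 (limma adjusted p = 0.148, exact permutation p = 0.0917). H2-Eb1 measured 102 ± 26.8 and 146 ± 32.1 FPKM, a log2 fold change of 0.52 ± 0.22 (limma adjusted p = 0.133, exact permutation p = 0.0667). H2-Aa measured 78.9 ± 23.2 and 106 ± 22.4 FPKM, a log2 fold change of 0.45 ± 0.23 (limma adjusted p = 0.194, exact permutation p = 0.1). The 95% confidence intervals of these fold changes reached up to 1.17, 1.10, 1.01 and 0.94, so that a doubling was within them for the first 3. These 4 genes depended on the model. With 1 model over all 17 libraries, H2-Ab1 (limma adjusted p = 0.0229) and H2-Eb1 (0.0456) passed the adjusted p, as 27.9% of all genes did in either direction, against 14.1% in the fit of these groups alone. With array weights all 4 passed it, at fold changes of 0.95 to 1.05 (limma adjusted p from 0.000756 to 0.00269), where 37.4% of all genes passed, and with quantile normalization none did, at 0.23 to 0.41.

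Ciita and H2-Ob differed by less than their spread. The log2 fold change was 0.18 ± 0.25 for Ciita (2.00 ± 0.267 and 2.54 ± 0.996 FPKM, limma adjusted p = 0.626) and -0.15 ± 0.18 for H2-Ob (3.08 ± 1.44 and 2.57 ± 0.471 FPKM, limma adjusted p = 0.600). H2-Oa, under 1 FPKM in nearly all of these libraries, was not in the fit. Its means were 0.659 ± 0.284 and 0.863 ± 0.255 FPKM (exact permutation p = 0.317).

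These differences leaned on single controls. Without control 3, the log2 fold change fell to 0.18 for H2-Aa, 0.28 for H2-Eb1, 0.35 for Cd74, 0.43 for H2-Ab1 and 0.30 for H2-DMa, and no class II gene had an adjusted p under 0.05 in limma (2 of 8 had an unadjusted p under 0.05, where 34.3% of all genes had). Without control 2, the values were 0.57, 0.64, 0.61, 0.71 and 0.44, and the limma adjusted p of H2-DMb1 was 0.0862 (0.0648 without control 3). H2-Ob turned to 0.13 without control 2. The number of class II genes with an adjusted p under 0.05 was 1 without each of NE 1 to NE 6 in turn, where 9.78% to 13.2% of all genes had one. The neutrophil list had a median log2 fold change of 0.73 in the same comparison, with 12 of 12 genes above 0 (43.9% of all genes). None of them passed the adjusted p in limma, and 2 had an unadjusted p under 0.05 (32.9% of all genes in either direction). Summed over the list, control 2 stood at 10030 FPKM, whereas the control median was 44359 FPKM and the NE median 44483.5 FPKM. The summed cerebellar list was at least 282 FPKM in every control and at most 38.1 FPKM in every NE library. The part of either in the class II values was not tested.

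**Figure D3:**
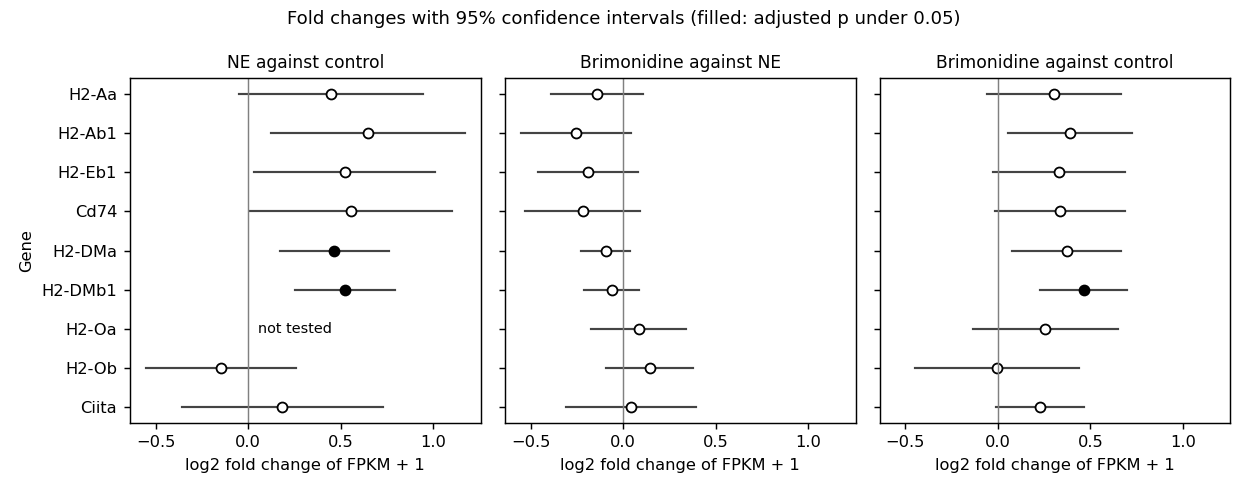
Log2 fold change of FPKM + 1 (x axis) of each class II gene (y axis) with its 95% confidence interval from limma, for NE against control (7 and 3 libraries), brimonidine against NE (7 and 7) and brimonidine against control (7 and 3). Filled points have an adjusted p under 0.05: H2-DMa and H2-DMb1 on the left, none in the middle and H2-DMb1 on the right.

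Brimonidine and NE were compared to ask what the drug changed in exposed mice. Both groups may also differ in the injections themselves, since none is stated for the NE group. All 9 class II genes passed the filter, H2-Oa with 1 NE and 4 brimonidine libraries at 1 FPKM or more. None had an adjusted or an unadjusted p under 0.05 in limma, and the log2 fold change was below 0 for 6 and above 0 for 3. Over all genes tested, it was below 0 for 42.3%. The background was as sparse: 0% of the 15707 genes were called, 1 gene (0.00637%) had an adjusted p under 0.05, and 5.77% had an unadjusted p under 0.05. H2-Ab1 had the largest difference, 110.3 ± 10.8 FPKM (SD, n = 7) against 135 ± 36.1 FPKM, a log2 fold change of -0.26 with a 95% confidence interval from -0.55 to 0.040 (limma adjusted p = 0.872, exact permutation p = 0.125). Cd74 followed with 261 ± 27.3 FPKM and -0.22, from -0.53 to 0.093 (limma adjusted p = 0.899, exact permutation p = 0.197). The values were 125 ± 13.2 FPKM and -0.19, from -0.46 to 0.079, for H2-Eb1, and 94.6 ± 6.78 FPKM and -0.14, from -0.39 to 0.11, for H2-Aa. Single NE libraries moved these 4 values. Without NE 6 they were -0.34 for H2-Ab1, -0.32 for Cd74, -0.28 for H2-Eb1 and -0.24 for H2-Aa, without NE 5 they were -0.17, -0.14, -0.12 and -0.084, and without NE 2 they were -0.18, -0.14, -0.14 and -0.084. In each of these 4 genes all 7 brimonidine libraries lay below the NE mean but within the NE range.

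For the other 5 genes the intervals were narrower or centered near 0. H2-DMa (19.7 ± 1.72 FPKM) had a log2 fold change of -0.094, from -0.23 to 0.037, and H2-DMb1 (21.1 ± 1.57 FPKM) of -0.061, from -0.21 to 0.087. A change of either H2-DM gene by more than 0.23 in either direction was thus outside both intervals. H2-Ob (2.96 ± 0.676 FPKM) had 0.14, from -0.092 to 0.38, H2-Oa (0.985 ± 0.340 FPKM) had 0.084, from -0.17 to 0.34, and Ciita (2.52 ± 0.342 FPKM) had 0.043, from -0.31 to 0.39. Ciita turned to -0.10 when NE 6 was left out. Without NE 6, 4 of the 9 class II genes had an unadjusted p under 0.05, where 7.15% of all genes had, with limma adjusted p from 0.584 for H2-Eb1 to 0.604 for Cd74.

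What set the brimonidine group apart in these values was a narrower spread, described here without a test. The SD of log2(FPKM + 1) of H2-Aa was 0.32 in the NE group and 0.10 with brimonidine, a ratio of 3.10. The ratio was 2.72 for H2-Ab1, 2.23 for H2-Eb1, 2.70 for Cd74 and 3.10 for Ciita, against a median of 1.10 over the 15707 genes. A ratio as high as that of Ciita occurred in 1.08% of all genes, as that of H2-Aa in 1.10% and as that of H2-Eb1 in 4.92%. It was 1.49 for H2-DMb1, 0.98 for H2-DMa and 0.75 for both H2-Oa and H2-Ob. Each NE library was also left out in turn, a choice made after seeing the data. Without NE 6 the ratio was 1.82 for Ciita, 2.08 for H2-Aa, 2.38 for H2-Ab1, 1.60 for H2-Eb1 and 2.21 for Cd74, and the median over all genes was 0.87. Ratios as high as these then occurred in 6.30%, 3.49%, 1.86%, 10.2% and 2.63% of all genes, in the same order. Without NE 5 the ratios were 2.82, 2.94, 2.41, 2.02 and 2.5, and 1.92%, 1.67%, 3.93%, 8.17% and 3.25% of all genes were as high. The NE spread came from both ends, NE 2 and NE 5 at the top and NE 6 at the bottom. NE 6 had the highest sum of neutrophil markers of all libraries (65703 FPKM) and the lowest sums in the NE group of B cell (39.8 FPKM), T cell (12.9 FPKM) and dendritic cell markers (30.4 FPKM). NE 5 had the highest T cell sum (26.4 FPKM). The part of these cell types in the class II spread was not tested.

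The brimonidine group differed from the control group in both noise and drug, and this comparison uses the same 3 controls as the first, so its values are no independent repeat. No class II gene reached both thresholds (5.73% of the 15947 genes tested did). On the adjusted p alone, 1 of the 9 was higher, H2-DMb1, where 3.47% of all genes were. The unadjusted p was under 0.05 for 3 of the 9, all higher (13.6% of all genes), and 8 of the 9 had a log2 fold change above 0 (45.8% of all genes). H2-Oa is 1 of these 8, and since all 3 controls were under 1 FPKM it was tested only through 4 brimonidine libraries above that limit. The H2-DMb1 mean of 21.1 ± 1.57 FPKM stood 39.2% above the controls, a log2 fold change of 0.46 ± 0.11 (SE, limma adjusted p = 0.0152, exact permutation p = 0.0167), and the adjusted p was 0.0580 without control 2 and 0.0548 without control 3. The log2 fold change was 0.39 for H2-Ab1, 0.37 for H2-DMa, 0.34 for Cd74, 0.33 for H2-Eb1, 0.30 for H2-Aa, 0.26 for H2-Oa, 0.23 for Ciita and -0.004 for H2-Ob, with limma adjusted p from 0.0776 to 0.990. Without control 3 the values fell to 0.17 for H2-Ab1, 0.21 for H2-DMa, 0.13 for Cd74, 0.091 for H2-Eb1, 0.032 for H2-Aa and 0.10 for H2-Oa, and without control 2 H2-Ob was at 0.27. Without control 1, 4 of the 9 had a limma adjusted p under 0.05, where 30.1% of all genes had, among them H2-Ab1 (0.0273) and Cd74 (0.0495). On the neutrophil list 12 of 12 genes lay above 0 here too (45.8% of all genes), with a median log2 fold change of 0.76. On the cerebellar list 12 of 12 genes were lower by the adjusted p in limma (12.3% of all genes). The part of either list in the class II values was not tested.

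Ratios within a library showed how the parts of the pathway stood to each other, again without a test. H2-Aa over H2-Ab1, the α to β ratio of I-A, was 0.914 ± 0.0775 in the controls, 0.796 ± 0.0668 after noise and 0.861 ± 0.0565 after noise with brimonidine, and it was lowest in NE 5 (0.718) and highest in control 2 (0.999). H2-DMa over H2-DMb1 lay near 1, between 0.803 and 1.13. H2-Ob over H2-DMb1, inhibitor over target, was 0.214 ± 0.126 in the controls, 0.118 ± 0.0294 after noise and 0.141 ± 0.0314 after noise with brimonidine. Control 2 alone stood at 0.358, and the other libraries lay between 0.0846 (NE 2) and 0.181 (brimonidine 7). H2-Oa over H2-DMa lay between 0.0256 and 0.0831.

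Across the 14 exposed libraries, H2-Aa, H2-Ab1, H2-Eb1 and Cd74 varied together. The following correlations describe log2(FPKM + 1) over n = 14 libraries that share tissue and library kit, and carry no p. H2-Aa correlated with H2-Eb1 at r = 0.97 (Spearman's rho = 0.95), with Cd74 at 0.97 (0.93) and with H2-Ab1 at 0.93 (0.91), and these held at 0.95, 0.96 and 0.93 without NE 5 and NE 6. H2-DMb1 followed H2-Aa at r = 0.82 (rho = 0.76, 0.85 without NE 5 and NE 6), and its r with H2-Ab1, H2-Eb1 and Cd74 went from 0.87, 0.84 and 0.87 to 0.60, 0.62 and 0.62 without NE 2 and NE 5. H2-DMa followed H2-Aa only at 0.46 (0.58). Both H2-DM genes, whose products form 1 complex, correlated with each other at r = 0.30 (rho = 0.31). H2-Ob was at 0.094 and H2-Oa at -0.43 with H2-Aa. Ciita went along with H2-Aa in the NE group (r = 0.98, n = 7) but not in the brimonidine group (r = -0.24, n = 7), and its pooled r of 0.80 (rho = 0.52) went to 0.43 without NE 5 and NE 6. In the brimonidine group the chains still correlated with each other (r = 0.75 for H2-Aa and H2-Ab1, 0.87 for H2-Aa and H2-Eb1).

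**Figure D4:**
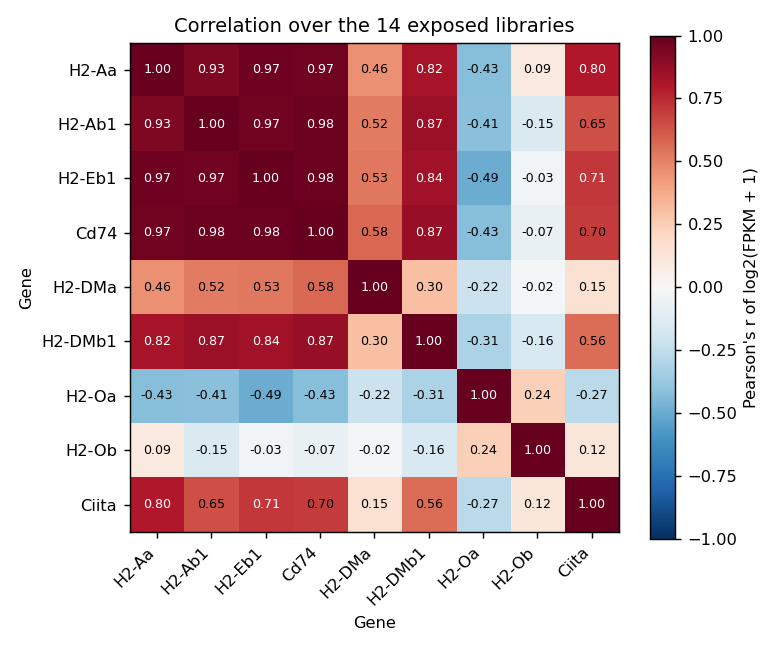
Pearson's r of log2(FPKM + 1) between each pair of class II genes (both axes) over the 14 exposed libraries, printed in each cell and colored from -1 (blue) to 1 (red). H2-Aa, H2-Ab1, H2-Eb1 and Cd74 form a block at 0.93 and above, with H2-DMb1 beside it at 0.82 to 0.87, and H2-Oa and H2-Ob stand outside it.

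Sums of cell type markers were set beside the genes in the same way. H2-Aa correlated with the T cell list at r = 0.83 (rho = 0.70, 0.57 without the 2 farthest libraries), with the dendritic cell list at 0.78 (0.82, 0.52), with the B cell list at 0.75 (0.80, 0.78) and with the macrophage list at 0.27 (0.31, 0.31). Within the brimonidine group the order was another: the macrophage list stood at r = 0.96 and the B cell list at 0.62 (n = 7). H2-Ob correlated with the B cell list at r = 0.54 (0.47, 0.26), at 0.72 among the NE libraries and at 0.90 among the brimonidine libraries. Ciita ran against the neutrophil list, at r = -0.94 in the NE group and -0.59 with brimonidine. In the NE group so did H2-Aa (-0.91), H2-Eb1 (-0.88), Cd74 (-0.82) and H2-Ab1 (-0.78). With brimonidine these genes were at 0.18, 0.24, 0.32 and 0.46, in the same order.

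The genes most like the class II chains in these 14 libraries were sought by the correlation with the mean log2(FPKM + 1) of H2-Aa, H2-Ab1, H2-Eb1 and Cd74, among 14665 genes whose mean reached 1 FPKM. Ly6c1, a surface antigen of monocytes and endothelium, came first at r = 0.93 (0.82 without NE 2 and NE 5, the libraries farthest from the median). Gbp3 (0.93, 0.82) and Gbp2 (0.90, 0.72), both interferon-inducible GTPases, and Tgtp1 (0.91, 0.76), a GTPase of the same response, were among the first 10. So were the class I genes H2-T22 (0.91, 0.76) and H2-K1 (0.91, 0.73). The other 4 were Tgm2 (0.93, 0.79), a transglutaminase, Ffar4 (0.92, 0.80), a fatty acid receptor, Krt23 (0.91, 0.79), a keratin, and Tmprss4 (0.91, 0.76), a serine protease. Within the NE group r was 0.91 or more for all 10, and within the brimonidine group it was 0.45 for Gbp2, 0.52 for Tgtp1, 0.57 for Gbp3 and 0.64 for Ly6c1 and ran from 0.71 to 0.94 for the other 6. All 10 had their highest level in NE 5 or NE 2, as the chains had: Tgtp1 ranged from 1.92 FPKM in NE 6 to 10.7 FPKM in NE 5. The 10 genes were picked by their correlation over these same libraries. Their shared peak and their high r in the NE group thus largely follow from that choice.

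Most of the other genes of the class II machinery did not pass the test. Of 19 listed genes in the table, 18 were tested in NE against control, 1 was higher on the adjusted p (2.12% of all genes) and none lower, with a median log2 fold change of 0.024 (-0.044 for all genes). That gene was Ctss, the protease that trims the invariant chain, at 157 ± 14.7 FPKM in the controls and 214 ± 18.8 FPKM in the NE group (log2 fold change 0.45 ± 0.11, limma adjusted p = 0.0255). Ifi30, the endosomal thiol reductase that unfolds antigens, had 0.51 (limma adjusted p = 0.0543). The subunits of the RFX complex, which binds the X box, lay at -0.038 for Rfx5, -0.15 for Rfxank and -0.30 for Rfxap (limma adjusted p = 0.846, 0.313 and 0.141). In brimonidine against control Ctss was higher again (217 ± 14.5 FPKM, limma adjusted p = 0.0111). H2-Eb2, a second E β gene, stood at 1.06 ± 0.166 against 0.483 ± 0.260 FPKM, but all 3 controls were under 1 FPKM and it was tested only through the brimonidine group.

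Genes of class I presentation, which shows peptides from inside the cell to CD8+ T cells, lay above 0 in 14 of 14 in NE against control, where 43.9% of all genes did. Their median log2 fold change was 0.45, against -0.044 for all genes, and 4 were higher by an adjusted p under 0.05 (2.12% of all genes). These were Tap1 (0.81, limma adjusted p = 0.0129) and Tap2 (0.54, 0.00774), the peptide transporter, Tapbp (0.36, 0.0486), its link to class I, and Psmb9 (0.76, 0.0309), a subunit of the immunoproteasome. In brimonidine against control, Tap1, Tap2 and the class I coactivator Nlrc5 (0.56, limma adjusted p = 0.0163) were higher by the adjusted p, as 3.47% of all genes were. On the interferon-γ list, Gbp2 passed both thresholds in NE against control (21.7 ± 12.4 and 54.5 ± 20.7 FPKM, log2 fold change 1.37, limma adjusted p = 0.0366) and 11 of 12 tested genes lay above 0. Ifng itself lay between 0 and 0.529 FPKM in every library. Among genes of costimulation, Cd274, which encodes the inhibitory ligand PD-L1, passed both (11.3 ± 5.46 and 24.7 ± 6.84 FPKM, log2 fold change 1.14, limma adjusted p = 0.0309). Control 2, which stood apart, had the lowest sum of the controls on each of these lists. Its class I genes summed to 1972 FPKM, against 2935 in control 1, 2567 in control 3 and at least 3131 in every NE library. Its interferon-γ list summed to 178 FPKM, against 277, 268 and at least 289 FPKM in the same order. Its costimulation list summed to 27.1 FPKM, against 34.6, 39.5 and at least 40.3 FPKM. How far these calls depended on control 2 was not tested.

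Markers of the cells that bear class II, and of T cells, gave no single direction. In NE against control, macrophage genes lay above 0 in 14 of 14, with a median log2 fold change of 0.20 (-0.044 for all genes), and Csf1r, the receptor of a macrophage growth factor, was higher (0.25, limma adjusted p = 0.0497). The summed macrophage list was 338 to 363 FPKM in the controls, 397 to 447 FPKM in the NE group and 396 to 470 FPKM in the brimonidine group, without overlap between the controls and the exposed libraries. On the dendritic cell list 5 of 10 tested genes lay above 0 (43.9% of all genes). Zbtb46 measured 2.96 ± 1.71 FPKM in the controls and 0.865 ± 0.113 FPKM after noise, but only 1 NE library exceeded 1 FPKM, so it was tested only through the controls. The B cell list had 3 of 10 above 0 and the T cell list 9 of 9, with no gene past the adjusted p in limma (1 of 10 and 2 of 9 had an unadjusted p under 0.05, as 32.9% of all genes had). In brimonidine against control 5 of 14 macrophage genes were higher on the adjusted p (3.47% of all genes) and none lower, among them Ccr2, a receptor of monocytes (0.99, limma adjusted p = 0.0317), and Adgre1, a surface protein of macrophages (0.32, limma adjusted p = 0.0245). On the dendritic cell list none of 10 was higher there, and Zbtb46 and Fscn1 were lower (limma adjusted p = 0.0136 and 0.00819), as 12.3% of all genes were. In brimonidine against NE no gene of any of these lists had an adjusted p under 0.05 in limma, and an unadjusted one was found for 3 of 10 dendritic cell, 2 of 14 macrophage, 1 of 10 B cell and 0 of 9 T cell genes, against 5.77% of all genes. Whether the number of such cells moved the class II genes was not tested.

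**Figure D5:**
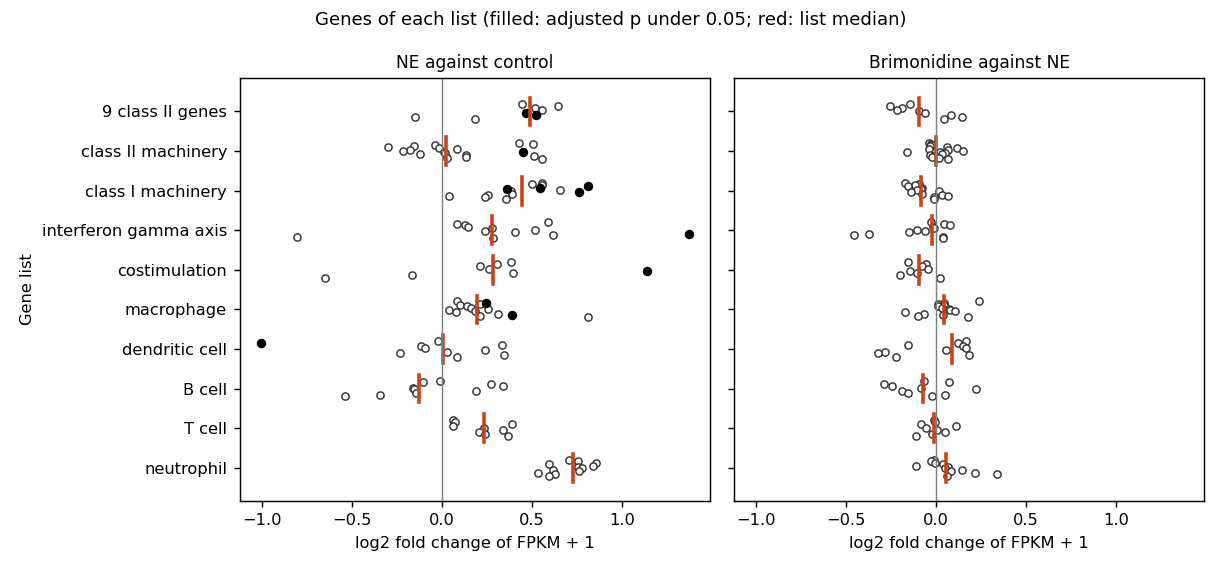
Log2 fold change of FPKM + 1 (x axis) of the 9 class II genes and of the genes of 9 lists (y axis), with 1 point per gene tested, filled where the adjusted p was under 0.05, and a red bar at the median of the list. On the left, NE against control, class II, class I and neutrophil genes had medians of 0.49, 0.45 and 0.73. Control 2 was the lowest control in the summed class I and neutrophil lists. On the right, brimonidine against NE, no point is filled and the 9 class II genes had a median of -0.094.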

How the data were processed

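Cochlear RNA of 17 mice (3 control, 7 NE, 7 brimonidine) was extracted with TRIzol, made into libraries with a TruSeq stranded mRNA kit and sequenced by the authors. The deposited values are FPKM for 35285 genes, fragments divided by exon length and library total. The submitters' processing notes name Trimmomatic, HISAT2, Cufflinks, HTSeq and mm10, without versions or roles. Exon lengths were solved from the steps of the values (tolerance 0.02 fragments) where GENCODE M21 lengths gave no whole fragments. This gave whole fragments for 34719 of 35029 genes above 0.

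Genes at 1 FPKM or more in 3 or more libraries of a comparison were tested on log2(FPKM + 1) with limma 3.58.1 (R 4.3.3; lmFit, eBayes with trend). Each model held the libraries of its own comparison alone. Exact two-sided permutation tests of group means used Python 3.11.15 and scipy 1.17.1. On simulated data, 200 of 200 genes changed by a log2 fold change of 2 were recovered in each comparison, with 9 false calls among 15568 genes for NE against control, 2 among 15877 for brimonidine against NE and 7 among 15613 for brimonidine against control. The class II differences, 0.65 or less, were smaller than those simulated. Within the groups of 7, 18 sets of values were checked for outliers and 0 stood out.

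The 9 genes, the gene lists, the tests and the alternatives were chosen with earlier results of these data known. Named genes were the 9, the 10 most correlated with the chain genes, and list genes that passed the adjusted p or bear on the pathway, some of them picked after their values were seen. Replicate numbers did not pair the libraries: deviations of libraries with the same number correlated at -0.221 to 0.0831. Promoters came from RefSeq (GRCm38.p6). Figures were drawn with matplotlib 3.10.9. H2-Ab1, Cd74 and Ciita have no promoter shown. Some list genes are not reported here.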

Additional observations from a re-analysis of the deposited data

How the results depend on the processing

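The alternatives were array weights, 1 model over all 17 libraries, the replicate number as a block, quantile normalization, scaling by median ratios, scaling to the same total, a pseudocount of 0.1, keeping genes with low values, voom on the recovered fragments, the adjusted p alone, and each library left out in turn. No class II gene reached both thresholds, except H2-Ab1 under array weights in NE against control (1.05, 1 gene called in all). Of the fold changes against the controls, those of H2-Ob changed sign: in NE against control 0.086 by quantiles, 0.14 by array weights and 0.13 without control 2, and in brimonidine against control, from -0.004, 0.22, 0.20 and 0.27 (above 0 in 10 of 19). With 1 library left out it ran from -0.29 to 0.13 and from -0.14 to 0.27, lowest without control 1. H2-DMb1 kept an adjusted p under 0.05 in 16 of 19 alternatives in each comparison with the controls, and lost it without control 2, without control 3 and under the block. H2-DMa kept it in 8 of 19 in NE against control, with adjusted p from 0.000423 (array weights) to 0.360 (block). With the replicate number as a block, which pairs no libraries here, 0 class II genes had an adjusted p under 0.05 in any comparison. Other choices gave more calls by the adjusted p. Array weights gave 6 of 8 class II genes in NE against control (H2-Ab1 1.05, H2-Eb1 0.98, H2-Aa 0.95 and Cd74 0.95 besides both H2-DM genes) and 8 of 9 in brimonidine against control, all but H2-Ob, where 37.4% and 43.4% of all genes passed. The model over all 17 libraries gave 4 of 8 and 2 of 9, where 27.9% and 28.8% of all genes passed. Quantile normalization lowered H2-Aa to 0.23, H2-Eb1 to 0.23, Cd74 to 0.26 and H2-Ab1 to 0.41 in NE against control, and Ciita rose to 0.45 (limma adjusted p = 0.00605) in brimonidine against control. H2-Oa, tested in NE against control only when low values were kept, had 0.17 (limma adjusted p = 0.533).

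Over all genes, the count called in NE against control went from 918 to 0 with the block (2070 at an unadjusted p under 0.05), to 2247 by the adjusted p alone and to 368 to 934 with 1 library left out, lowest without control 2. In brimonidine against control it went from 913 to 236, 2518 and 468 to 1080, again lowest without control 2. In brimonidine against NE it was 1 by array weights, 1 by the adjusted p alone and 0 in the fits that left out 1 library. The cause was not tested. Few fragments limited H2-Oa (7 to 32 per library), and 3 controls limited every comparison with them.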
